A study of Mus musculus with 12 samples.

Results

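The tumour suppressor gene Trp53, which encodes p53, was examined with 30 genes that are known as its regulators or direct transcriptional targets. These 31 genes were taken as a fixed list of symbols and were matched by symbol to the Ensembl gene identifiers of the count tables, where each found 1 of the 56748 gene rows. Bulk RNA-seq had been made from mouse Lin-Sca+Kit+ (LSK) BM cells, the sorted fraction in which haemopoietic stem and early progenitor cells are found, in 12 libraries, 6 named CTRL and 6 named CML 2wk. All donor cells came from SCLtTA/BCR-ABL double transgenic mice, in which a tTA transgene under a stem cell leukaemia (Scl) enhancer drives human BCR::ABL1 once tetracycline (TET) is removed. By the study's methods, donor BM (CD45.2) had been pooled from several animals of both sexes and frozen. It was given to irradiated B6.SJL recipients (CD45.1) that were 8 to 12 weeks old. Irradiation was in doses of 4.25 Gy given 3 h apart. After 2 weeks on TET for engraftment, TET was withdrawn for 2 weeks in the CML 2wk mice (BCR::ABL1 on) and kept in the CTRL mice (BCR::ABL1 off), so that every library, CTRL included, carries both transgenes and comes from an irradiated host. The comparison asks how the transcripts of p53, of its regulators and of its targets stood in LSK cells early after BCR::ABL1 was switched on.

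p53 is a transcription factor that is held at a low level by the ubiquitin ligase MDM2 and its partner MDM4, and that accumulates after DNA damage, ribosomal stress or oncogene activity. It binds pairs of short DNA motifs, known as p53 half-sites, near its target genes, which arrest the cell cycle, promote cell death, repair DNA or adjust metabolism. Several targets, MDM2 among them, act back on p53 itself. In haemopoietic stem cells p53 is known to maintain quiescence, and its loss is linked to the progression of chronic myeloid leukaemia. p53 is regulated mainly at the level of the protein, which was not measured here.

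Depth was 22804754 to 41832868 counts in CTRL and 16150817 to 25070105 in CML 2wk. The share of mitochondrial counts was 0.816% to 1.29% in CTRL and 2.26% to 2.97% in CML 2wk, and the part of this difference in the results was not tested. By their library numbers, the first 5 replicates of a group were numbered together and apart from the other group, while both replicates 6 have numbers close to each other. For replicates 1 to 5 the numbering and the group cannot be told apart. Between the replicates 6, 1 library a group and so without a test, 17 of the 18 genes called below had the direction of their call, all but Dcxr (Trp53 179 CPM in CTRL and 91.9 in CML 2wk, Ccng1 82.7 and 158). These libraries were part of the fits that made the calls. For the 5 higher and 7 lower genes whose groups did not overlap, the direction between them was fixed. The count is thus no separate check on the numbering. The labels give CTRL as male and CML 2wk as female, but Xist, which is expressed in female cells, was at 3683 to 4574 CPM (counts scaled to a common library total) in CTRL and 2152 to 3539 in CML 2wk. The methods give the sorted cells as CD45.2+, so Xist reports on the donor cells, whose pool the methods give as of both sexes. The summed level of 4 Y-linked genes was only 0.0759 to 2.25 CPM in CTRL. By these genes and Xist, little RNA of male cells was in the CTRL libraries. How a pool of both sexes gave this was not tested. Whether the labels give the sex of donors or of recipients is not known here, so these values do not decide if the labels are right. CML 2wk replicate 2 stood apart from its group. It had the lowest Xist of all 12 libraries, and the summed level of 4 Y-linked genes was 22.4 CPM there and 2.65 in replicate 4, against at most 0.0619 in the other CML 2wk libraries and 0.0759 to 2.25 in CTRL. The summed level of 16 stromal and extracellular matrix genes was 3236 CPM there and 755 in CML 2wk replicate 4, against 285 to 333 in CTRL and at most 264 in the other CML 2wk libraries. The summed level of 13 LSK markers, of which 10 were called lower and 2 higher, was 3919 to 4425 CPM in CTRL and 2550 to 3214 in CML 2wk. That of 10 mast cell and basophil genes, of which 7 were called higher and 1 lower, was 115 to 223 CPM in CTRL and 438 to 2555 in CML 2wk. The sum of 10 megakaryocyte genes, of which 8 were called lower, was 396 to 486 CPM in CTRL and 141 to 337 in CML 2wk. Of 10 erythroid genes 7 were called lower and 1 higher, although their sum was 207 to 291 CPM in CTRL and 278 to 668 in CML 2wk. The higher gene was Tfrc, the transferrin receptor, at 119 to 152 CPM in CTRL and 256 to 641 in CML 2wk. It made up most of the sum in CML 2wk. The sum of 10 B cell genes, of which 3 were called lower, was 437 to 781 CPM and 29.4 to 366 CPM, with the lowest value in CML 2wk replicate 2. The sums of monocyte and macrophage genes (249 to 477 and 411 to 612 CPM), of neutrophil genes (2205 to 4520 and 2373 to 6546) and of T and NK cell genes (80.0 to 103 and 87.9 to 195) overlapped between the groups. Single genes of these lists were called all the same. Of 10 neutrophil genes 4 were called higher and 4 lower. Of 10 monocyte and macrophage genes 2 were called higher, and of 10 T and NK cell genes 2 higher and 3 lower. No gene of the 9 lists was at 0 in all libraries. In bulk RNA, fewer cells of a type and less RNA per cell cannot be told apart, and the part of these other cells in the values of the p53 genes was not tested.

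Cdkn1a, which encodes the cell cycle inhibitor p21, is shown first by its sequence, since it was the only one of the 24 genes with a RefSeq promoter window (GRCm38.p6) whose window held an exact p53 element. Each window covered the 250 bases before an annotated start, and an element was a pair of p53 half-sites 0 to 13 bases apart, searched on both strands, since the half-site is its own reverse complement. Such a pair was found for 18 of 27025 genes with a window (0.0666%). In Cdkn1a it lay in the window chr17:29090729-29090978 (plus strand), before the upstream of its annotated starts, with the first base of the element 73 bases upstream of that start and 2863 bases upstream of the last one. The capitals mark the half-sites. Those of the exact pair are 12 bases apart. The last half-site is directly next to the one before it, and the 2 form a second element (chr17:29090928-29090947). In it, 1 base outside the core departs from the motif. With 1 such departure allowed, a pair was found for 0.403% of genes, and among the 24 only for Cdkn1a.
Cdkn1a: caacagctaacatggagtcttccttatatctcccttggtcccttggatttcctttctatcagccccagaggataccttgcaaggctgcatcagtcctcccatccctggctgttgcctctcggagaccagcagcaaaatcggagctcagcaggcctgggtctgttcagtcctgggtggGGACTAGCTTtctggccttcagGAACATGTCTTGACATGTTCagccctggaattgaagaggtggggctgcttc
With up to 2 departures outside the core, a pair was found for 2.06% of genes, and among the 24 for Sesn1, a stress-induced regulator of mTORC1, at chr10:41887253-41887275 (plus strand, GRCm38.p6).
Sesn1: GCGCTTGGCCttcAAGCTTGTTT
These matches describe the letters in the windows and say nothing of binding in these cells. Cdkn1a and Sesn1 moved in opposite directions.

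Of the 31 genes, 30 passed the filter on low counts and were tested with edgeR's quasi-likelihood test. With a Benjamini-Hochberg adjusted p under 0.05 as the call, 5 were higher in CML 2wk (16.7%) and 13 were lower (43.3%), while 12 were not called. Over all 18438 genes tested, 59.5% were called, 30.6% higher and 29.0% lower, so that the 18 called members were close to the share of all genes, with fewer of them higher and more of them lower. The median log2 fold change was −0.14 over the 30 genes and 0.067 over all genes tested. Ccng1, Cdkn1a, Perp, Aen and Tigar were higher and did not overlap between the groups (17.0% of all genes did not overlap in this direction). Of the 13 lower genes 7 did not overlap, Trp53, Btg2, Psrc1, Pidd1, Trp53inp1, Xpc and Sesn1 (20.6% of all genes, and 37.6% in either direction). Each of the 5 groups of regulators and targets held 2 or 3 genes called lower, and each but DNA repair held 1 or 2 called higher.

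**Figure D1:**
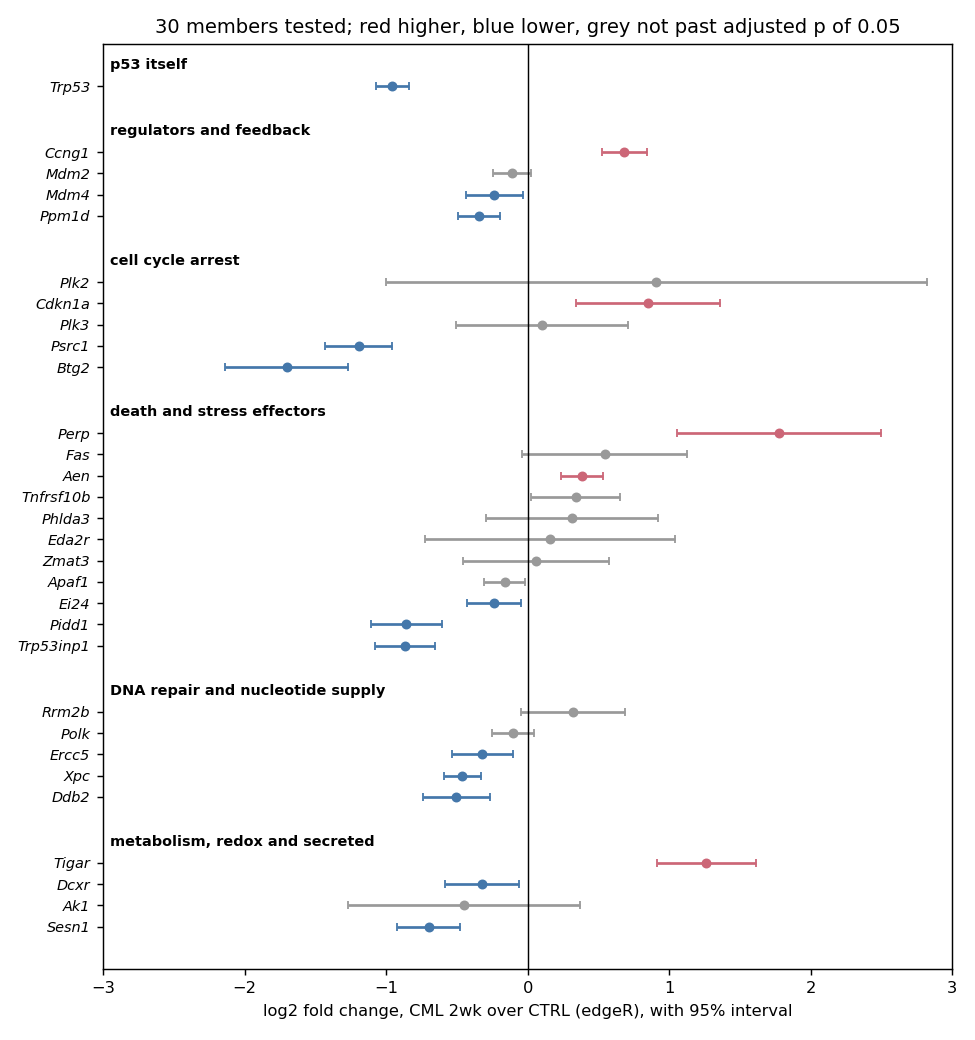
Log2 fold change of CML 2wk over CTRL (x axis) for the 30 genes tested, ordered by role; points are edgeR estimates from 6 libraries a group and bars are 95% intervals, in red where called higher, blue where called lower and grey where not called. The estimates run from −1.70 for Btg2 to 1.77 for Perp, and the interval of Plk2 is the widest.

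Trp53 (ENSMUSG00000059552) was close to 1 level within each group. Its TMM-scaled CPM (CPM after edgeR's scaling between libraries) ran from 179 to 196 in CTRL (median 184) and from 86.3 to 100 in CML 2wk (median 98.6). Every CML 2wk library was thus below every CTRL library, replicate 2 included. The log2 fold change was −0.96 ± 0.055 (SE), 1.94-fold lower, with an adjusted p of 1.80e-08, and it was −0.98 without CML 2wk replicate 2. Per kilobase of exon, the mean level of Trp53 was the highest of all 31 genes in CTRL (46.0 CPM per kb), but in CML 2wk (23.7) it stood below Ccng1 (39.5). A pseudogene, Trp53-ps, is annotated, and whether reads were shared with it is not known here.

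The regulators did not move as 1 group. Mdm2 (ENSMUSG00000020184), the ubiquitin ligase and itself a p53 target, ran from 68.0 to 76.5 CPM in CTRL (median 73.7) and from 62.0 to 75.2 in CML 2wk (median 65.8). The groups overlapped, and the log2 fold change of −0.11 (95% interval −0.24 to 0.02, adjusted p = 0.144) was not called, although it was −0.15 with an adjusted p of 0.0457 without CML 2wk replicate 2. Mdm4, which binds p53 and restrains its activity, ran from 225 to 264 CPM in CTRL (median 241) and from 168 to 247 in CML 2wk (median 202). Its log2 fold change of −0.24 ± 0.094 was called (adjusted p = 0.0419), but the groups overlapped and the call was lost under 12 of 21 alternatives, with adjusted p-values up to 0.206. Ppm1d, a phosphatase that turns off p53 and its upstream kinases, had 35.1 to 42.9 CPM in CTRL and 29.5 to 35.5 in CML 2wk. It fell by 0.34 ± 0.069 on the log2 scale (adjusted p = 0.000619), and the groups met only at their edges.

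Ccng1 (ENSMUSG00000020326), the gene of cyclin G1 and a p53 target that takes part in the feedback through MDM2, was the only one of these 4 that rose. It ran from 79.6 to 94.5 CPM in CTRL (median 85.7) and from 118 to 158 in CML 2wk (median 137), with all 6 CML 2wk libraries above all CTRL libraries. The log2 fold change was 0.68 ± 0.074 (1.61-fold, adjusted p = 2.18e-06).

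Ratios of counts within a library do not depend on how libraries are scaled, and they are given as a description with no test, since they were chosen after the values were seen. The ratio of Mdm2 to Trp53 was 0.393 ± 0.031 (SD, n = 6) in CTRL and 0.706 ± 0.0644 in CML 2wk. This was 1.80-fold higher (geometric means), with ranges of 0.347 to 0.426 and of 0.637 to 0.806 that did not overlap. The ratio of Mdm4 to Trp53 went from 1.31 ± 0.143 to 2.16 ± 0.414, likewise without overlap. That of Mdm4 to Mdm2 was 3.33 ± 0.207 and 3.09 ± 0.686, with the CML 2wk libraries on both sides of the CTRL range. The counts of both targets per count of Trp53 were higher in every CML 2wk library, by 3.11-fold for Ccng1 and by 3.26-fold for Cdkn1a (2.81-fold without CML 2wk replicate 2). Trp53 itself was 1.94-fold lower, so a gene that did not change would have a ratio to Trp53 higher by about this factor. The ratios of Mdm2 and of Mdm4 to Trp53 (1.80-fold and 1.64-fold) were below it, and those of Ccng1 and Cdkn1a above it.

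**Figure D2:**
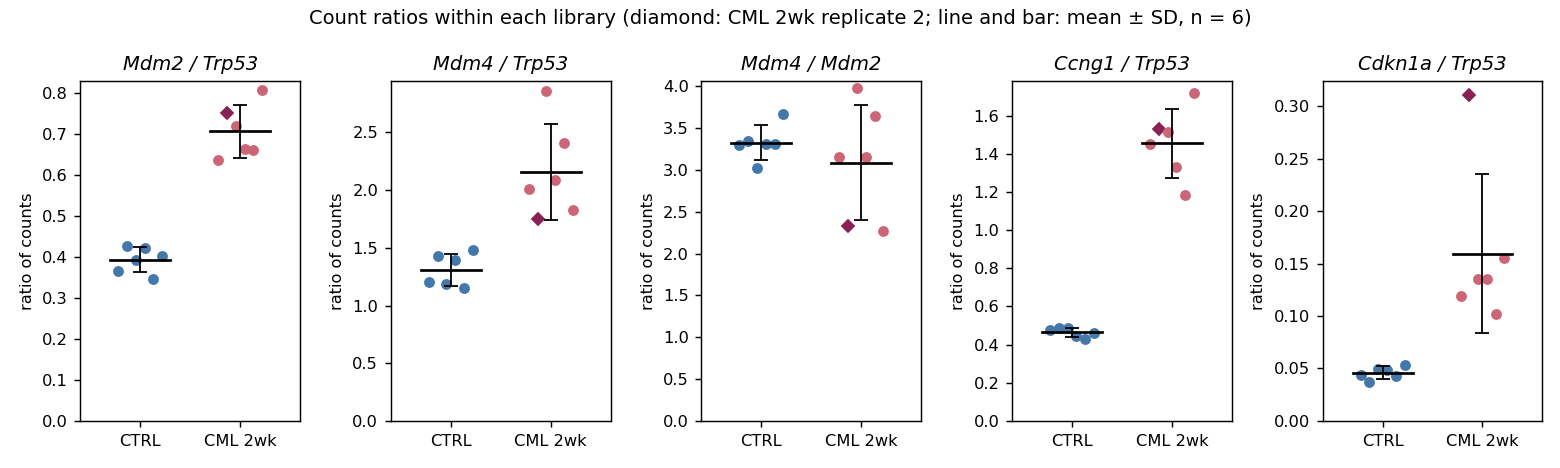
Ratio of the counts of 2 genes within each library (y axis) in CTRL and CML 2wk; points are libraries, the diamond is CML 2wk replicate 2, and lines with bars are means ± SD (n = 6). The ratios to Trp53, which was itself 1.94-fold lower in CML 2wk, separate the groups, while Mdm4 to Mdm2 (3.33 and 3.09) does not.

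Among the genes of cell cycle arrest, Cdkn1a rose while Btg2 and Psrc1 fell. Cdkn1a (ENSMUSG00000023067) ran from 6.58 to 9.65 CPM in CTRL (median 8.54) and from 10.1 to 31.1 in CML 2wk (median 12.6). No CTRL library reached a CML 2wk library, but replicate 2 of CML 2wk lay far above the next one, at 14.3 CPM. The log2 fold change was 0.85 ± 0.24 (adjusted p = 0.00671), and 0.51 without that library (adjusted p = 0.00195).

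Btg2, an antiproliferative gene that p53 induces and that is also an immediate early gene, was the member that fell most. It had 30.1 to 71.2 CPM in CTRL (median 42.2) and 8.89 to 20.4 in CML 2wk (median 13.5), 3.25-fold lower (log2 fold change −1.70 ± 0.20, adjusted p = 5.62e-06). Psrc1, a gene of a microtubule-associated protein of the spindle, had 23.8 to 30.5 CPM in CTRL (median 28.7) and 8.90 to 13.8 in CML 2wk (median 13), with a log2 fold change of −1.19 ± 0.11 (adjusted p = 4.87e-07). Both had all CML 2wk libraries below all CTRL libraries.

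The stress-responsive polo-like kinases Plk2 and Plk3 were low and not called. Plk2 was between 0.264 and 2.7 CPM in CTRL and between 0 and 7.92 in CML 2wk, where replicates 2 and 4 (7.92 and 3.69 CPM) were above all CTRL libraries and the other 4 were at or below 0.674. Its log2 fold change of 0.91 (adjusted p = 0.395) turned to −0.25 without replicate 2 and to −1.93 without replicates 2 and 4 (adjusted p = 0.0346), the libraries with the highest stromal sums. Plk3 was at 2.00 to 5.87 CPM in CTRL and 2.77 to 6.42 in CML 2wk, with a log2 fold change of 0.10 (95% interval −0.51 to 0.71).

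**Figure D3:**
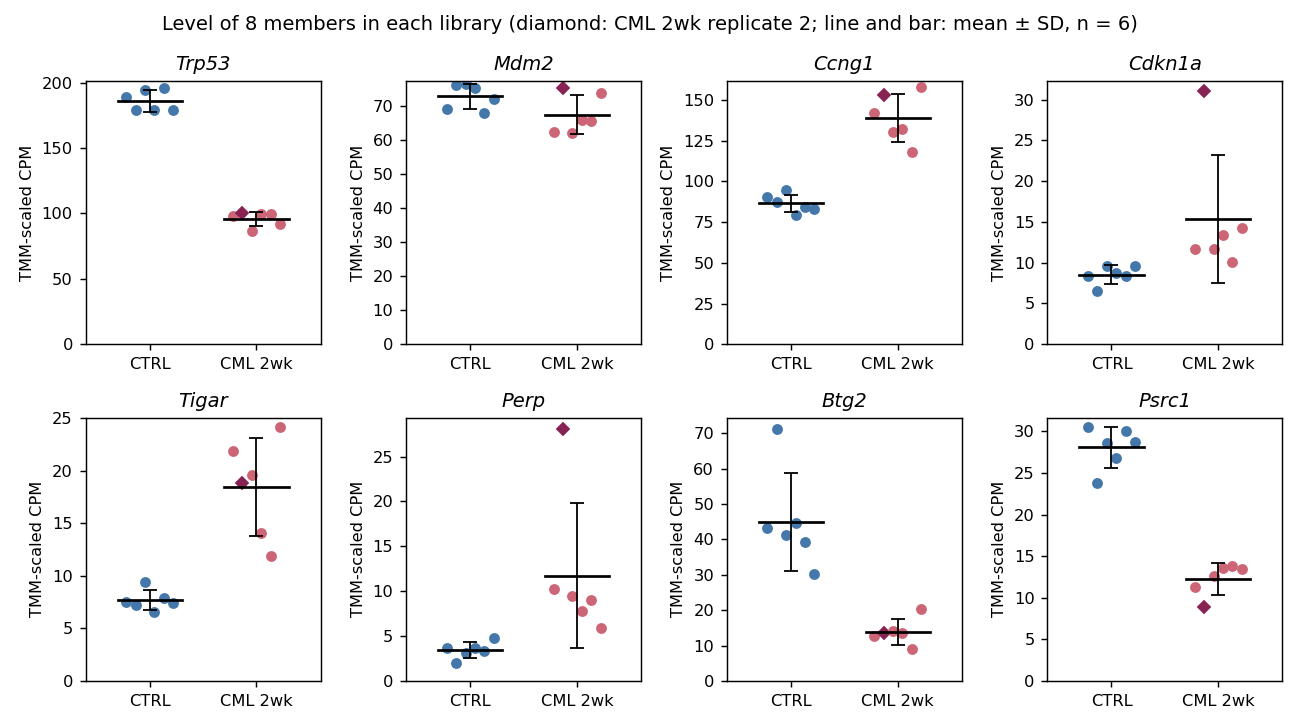
TMM-scaled CPM (y axis, from 0) of 8 genes in CTRL and CML 2wk; points are libraries, the diamond is CML 2wk replicate 2, and lines with bars are means ± SD (n = 6). Trp53, Btg2 and Psrc1 lie lower and Ccng1, Cdkn1a, Tigar and Perp higher in all 6 CML 2wk libraries, while Mdm2 overlaps, and replicate 2 is far above the other CML 2wk libraries for Cdkn1a (31.1) and Perp (28.0).

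Of the 11 genes of cell death and stress, 2 rose (18.2%, against 30.6% of all genes), 3 fell (27.3%, against 29.0%) and 6 were not called. Perp, a membrane protein of desmosomes that p53 induces during apoptosis, had the largest estimate of the 30 genes. It ran from 2.02 to 4.79 CPM in CTRL (median 3.47) and from 5.87 to 28.0 in CML 2wk (median 9.27), again with replicate 2 alone at the top, before 10.2 CPM. The log2 fold change was 1.77 ± 0.34 (adjusted p = 0.00039), and 1.29 without replicate 2 (adjusted p = 4.01e-05). Aen, a nuclease that degrades DNA and RNA during apoptosis, had 37.2 to 45.6 CPM in CTRL and 46.9 to 58.7 in CML 2wk. It was 1.31-fold higher (log2 fold change 0.39 ± 0.070, adjusted p = 0.000253), with no overlap and with CML 2wk replicate 2 inside its group.

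Pidd1, a scaffold that activates caspase-2, and Trp53inp1, a stress protein that acts back on p53 and takes part in autophagy, fell to a similar extent. Pidd1 had 36.0 to 40.5 CPM in CTRL (median 38.4) and 14.5 to 27.2 in CML 2wk (median 21.2), with a log2 fold change of −0.86 ± 0.12 (adjusted p = 1.95e-05). Trp53inp1 had 68.4 to 98.9 CPM in CTRL (median 92.6) and 39.0 to 55.3 in CML 2wk (median 49.3), with a log2 fold change of −0.86 ± 0.099 (adjusted p = 3.92e-06). Neither overlapped between the groups. Ei24, an endoplasmic reticulum protein of autophagy, was at 53.4 to 61.8 CPM in CTRL and 42.0 to 59.8 in CML 2wk. Its fall by 0.24 on the log2 scale was called (adjusted p = 0.0321) but was lost under 7 of 21 alternatives, with adjusted p-values up to 0.0880.

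The death receptors were not called. Fas had 1.02 to 1.70 CPM in CTRL and 0.919 to 3.11 in CML 2wk (log2 fold change 0.54, 95% interval −0.04 to 1.13). Tnfrsf10b, the mouse TRAIL receptor, had 6.94 to 8.19 CPM in CTRL and 7.31 to 13.6 in CML 2wk (log2 fold change 0.34, 95% interval 0.02 to 0.66, adjusted p = 0.0599). Eda2r, an X-linked receptor of the same family, was at 0.785 to 1.27 CPM in CTRL and 0.150 to 1.97 in CML 2wk. All 3 overlapped between the groups, and replicate 2 of CML 2wk had the highest level of Tnfrsf10b and Eda2r. Apaf1, the core of the apoptosome, was at 109 to 127 CPM and 92.3 to 123 CPM (log2 fold change −0.16, 95% interval −0.31 to −0.02, adjusted p = 0.0512). Phlda3, an inhibitor of AKT, and Zmat3, an RNA-binding protein, had log2 fold changes of 0.31 and 0.06 that were not called. In both genes the highest CML 2wk library was replicate 2, at 5.43 CPM for Phlda3 and 20.5 for Zmat3, and the estimates turned to −0.052 and −0.24 without it.

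The nucleotide excision repair genes were lower. Xpc, which recognises damaged DNA, had 126 to 143 CPM in CTRL (median 139) and 88.5 to 109 in CML 2wk (median 98.2) without overlap, 1.38-fold lower (log2 fold change −0.46 ± 0.062, adjusted p = 1.74e-05). Ddb2, which recognises damage by ultraviolet light, had 12.3 to 16.6 CPM in CTRL and 8.60 to 12.4 in CML 2wk (log2 fold change −0.50 ± 0.11, adjusted p = 0.00118). The groups of Ddb2 met at 1 library each, and 23.8% of its exon bases overlap Acp2 on the opposite strand, so that its counts are uncertain where the counting did not use strand. Ercc5, an endonuclease of the same pathway, had 19 to 20.7 CPM in CTRL and 13 to 19.5 in CML 2wk, with a log2 fold change of −0.32 ± 0.10 (adjusted p = 0.0131) that was lost without replicate 6 of both groups (adjusted p = 0.0623).

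Polk, a DNA polymerase that copies past lesions, and Rrm2b, a subunit of ribonucleotide reductase that supplies nucleotides, were not called. Polk was at 21.2 to 24.4 CPM in CTRL and 20.3 to 24 in CML 2wk (log2 fold change −0.10, 95% interval −0.25 to 0.04). Rrm2b was at 23.1 to 27.3 CPM in CTRL, and in CML 2wk replicates 2 and 6 had 43.4 and 45.6 CPM while the other 4 had 21.5 to 28.2. Its log2 fold change was 0.32 (95% interval −0.05 to 0.69).

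In the group of metabolism, redox and secreted factors, Tigar and Sesn1 moved apart. Tigar, a phosphatase that lowers glycolysis and oxidative stress, had 6.55 to 9.42 CPM in CTRL (median 7.47) and 11.9 to 24.2 in CML 2wk (median 19.2). The log2 fold change was 1.26 ± 0.16 (2.40-fold, adjusted p = 1.17e-05), and 1.25 without CML 2wk replicate 2. Sesn1, whose element is shown above, had 102 to 114 CPM in CTRL (median 110) and 50.5 to 86.6 in CML 2wk (median 66.5), with a log2 fold change of −0.70 ± 0.10 (adjusted p = 4.23e-05). For both genes all CML 2wk libraries lay on 1 side of all CTRL libraries.

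Dcxr, a reductase of sugars and carbonyls, was at 6.57 to 8.23 CPM in CTRL and 5.32 to 7.35 in CML 2wk. Its fall by 0.32 on the log2 scale was called (adjusted p = 0.0341) and was lost under 11 of 21 alternatives. Ak1, an adenylate kinase, had 5.05 to 6.15 CPM in CTRL, and in CML 2wk replicate 2 had 11.6 CPM while the other 5 had 1.65 to 3.91. Its log2 fold change of −0.45 was not called (adjusted p = 0.324), but without replicate 2 the groups did not overlap and it was −1.10 (adjusted p = 0.000194). Gdf15, a secreted stress cytokine, did not pass the filter on low counts, with 0 to 18 counts per library and with CML 2wk replicates 3 and 5 at 0.

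**Figure D4:**
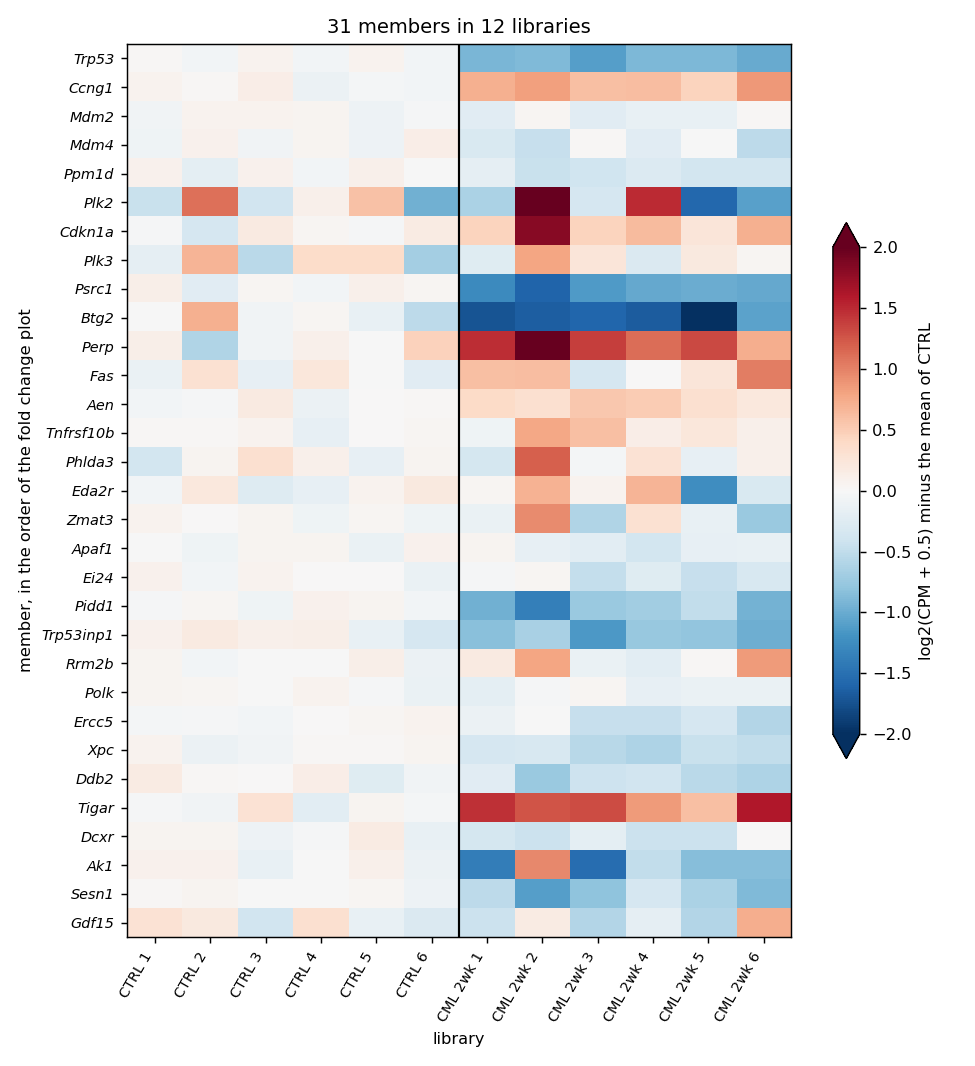
Level of all 31 genes (rows, by role) in the 12 libraries (columns) as log2(CPM + 0.5) minus the mean of CTRL, in blue where below and red where above, with colours ending at −2 and 2. Trp53, Psrc1, Btg2, Pidd1 and Trp53inp1 are blue and Ccng1, Perp and Tigar red in all 6 CML 2wk libraries, and the column of CML 2wk replicate 2 is the reddest for Plk2, Cdkn1a, Phlda3, Zmat3 and Ak1.

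The libraries of CML 2wk differed more from one another than those of CTRL. Of the 29 genes above 0 in all libraries, 25 had a larger SD of log2 CPM in CML 2wk, with a median SD of 0.243 against 0.0996 in CTRL. Without CML 2wk replicate 2 these were 22 genes and 0.199. The larger spread was not particular to these genes. Over all genes tested, the biological coefficient of variation was 10.8% in CTRL, 32.4% in CML 2wk and 24.5% in CML 2wk without replicate 2. CML 2wk replicate 2 was the highest of all 12 libraries for 9 of the 31 genes and the highest of its group for 15. The shares of all genes for these counts were not computed. The genes called in either direction kept their direction without it, and the estimates it moved most belonged to Plk2, Ak1, Perp, Phlda3 and Cdkn1a.

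**Figure D5:**
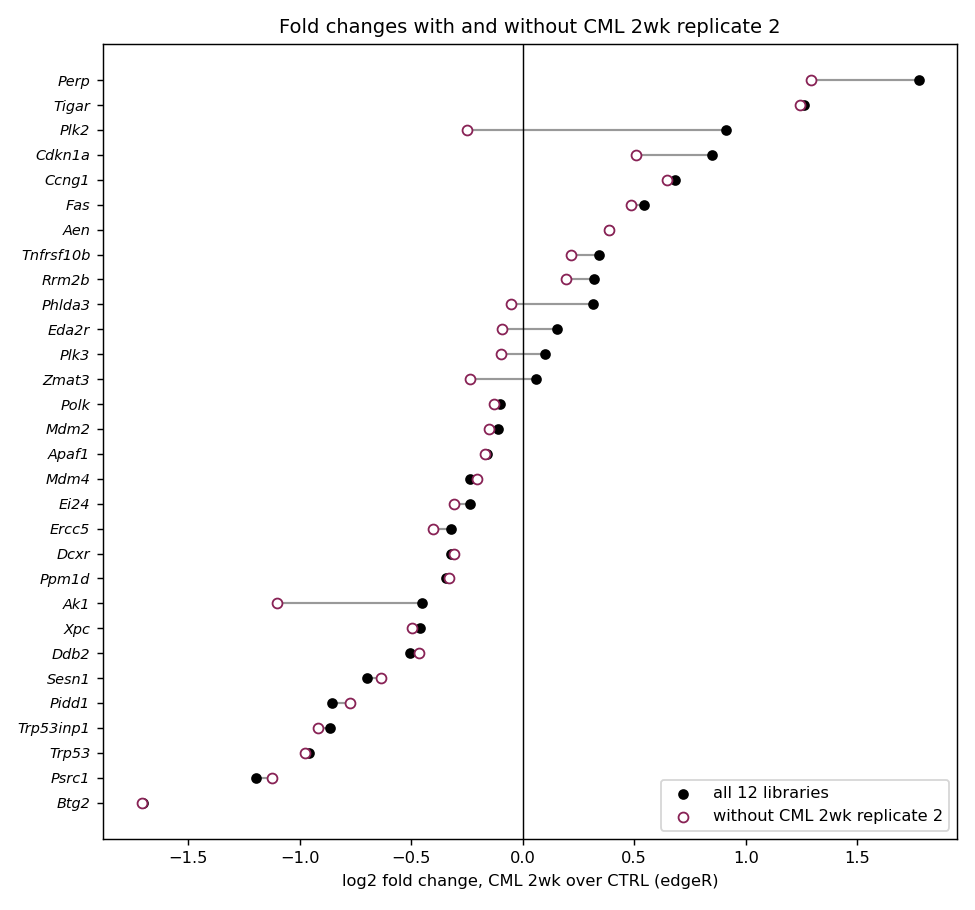
Log2 fold change of CML 2wk over CTRL (x axis) for the 30 genes tested, with all 12 libraries (filled) and without CML 2wk replicate 2 (open). Plk2, Plk3, Eda2r, Phlda3 and Zmat3 change sign, Ak1 moves from −0.45 to −1.10, and Trp53, Btg2, Tigar and Aen hardly move.

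The wider pathway was read from another 25 regulators and 50 targets of p53. Of the 22 regulators tested, 4 were higher (18.2%, against 30.6% of all genes tested) and 14 lower (63.6%, against 29.0%), with a median log2 fold change of −0.33. The lower ones with the largest changes were Ppp1r13b (ASPP1, a cofactor that directs p53 to death genes) at −1.08 ± 0.099, Hipk2 (a kinase of p53) at −1.02 ± 0.075, and the acetyltransferases Crebbp at −0.86 ± 0.059 and Ep300 at −0.85 ± 0.068. The higher ones were the ribosomal proteins Rpl5 at 0.99 ± 0.12 and Rpl11 at 0.58 ± 0.13, which bind MDM2, the checkpoint kinase Chek1 at 0.35 ± 0.060, and the ubiquitin ligase Cop1 at 0.26 ± 0.053. All 8 had an adjusted p of at most 0.00154 in edgeR's quasi-likelihood test. Genes of ribosomal proteins have many processed copies with which reads may have been shared, so that the counts of Rpl5 and Rpl11 are uncertain. Cdkn2a, whose locus encodes p19Arf, an inhibitor of MDM2, and p16Ink4a, which a count per gene does not tell apart, did not pass the filter on low counts and was not tested. It had 0 to 5 counts in the CTRL libraries, and in CML 2wk it had 20, 54, 11 and 71 counts in replicates 1 to 4 (0.674 to 3.85 CPM) and 0 in replicates 5 and 6. Replicates 4 and 2 were the highest (3.85 and 2.31 CPM), and they also had the highest stromal sums (755 and 3236 CPM). The part of this in the counts of Cdkn2a was not tested. The p53 relatives Trp63 and Trp73 had at most 2 counts in any library.

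Of the 49 other targets tested, 13 were higher (26.5%, against 30.6% of all genes tested) and 19 lower (38.8%, against 29.0%), shares nearer to those of all genes than the regulators had, with a median log2 fold change of −0.17. A pair of classical death genes of the BH3-only family stood on opposite sides. Pmaip1 (NOXA) rose from 3.89 ± 0.637 CPM (SD, n = 6) to 22.7 ± 6.83 (log2 fold change 2.55 ± 0.20, adjusted p = 1.55e-07), and Bbc3 (PUMA) fell from 7.29 ± 1.11 to 3.71 ± 1.28 (−0.98 ± 0.21, adjusted p = 0.00101), both without overlap. Bax, their downstream effector, had a log2 fold change of 0.15 that was not called (adjusted p = 0.285). Among targets with a mean of at least 1 CPM over both groups, the others with the largest rise were the cytokine Lif at 3.34 ± 0.57, or 2.52 without CML 2wk replicate 2, Rps27l (a ribosomal protein paralogue) at 1.62 ± 0.18 and the long non-coding RNA Pvt1 at 1.30 ± 0.16. Lif met this limit only through CML 2wk, where it ran from 1.28 to 19.1 CPM. In CTRL it had 0.294 to 0.974 CPM (12 to 26 counts a library), so that the size of its rise is uncertain. Reads of Rps27l may have been shared with the gene of which it is a paralogue, so its counts are uncertain as well. With the same limit, those with the largest fall beside Bbc3 were Tlr3 (a receptor of double-stranded RNA) at −1.79 ± 0.58, or −2.71 without CML 2wk replicate 6, Pml (the organiser of nuclear bodies) at −1.33 ± 0.12 and Trp53i13 at −0.84 ± 0.13. All these calls were kept under each of the 21 alternatives.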

How the data were processed

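Per the labels and the study's methods, RNA of sorted LSK cells was made into Kapa RNA HyperPrep libraries and sequenced paired-end on a HiSeq4000. The deposited values are raw counts of 1 library each over Ensembl genes, without normalization. The submitters' processing notes name FastQC 0.11.9, fastp 0.23.2, STAR 2.7.10a, featureCounts 2.0.1, DESeq2 1.36.0 and GRCm39, while the methods name other trimming and alignment tools and a human build; the annotation, the use of strand and the counting of multimapping reads are not given in the sources used here. Without strand, reads of overlapping genes cannot be told apart: Ddb2 (23.8% of exon bases), Rrm2b (8.04%), Cdkn1a (7.68%), Ei24 (6.66%), Tigar (3.34%) and Plk3 (3.32%) overlap a gene of the opposite strand in GENCODE M21, which gave symbols (52073 of 56748 rows) and exon lengths. GENCODE M21 also names the pseudogenes Trp53-ps and Mdm4-ps, with which reads of Trp53 and Mdm4 may have been shared.

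Counts were scaled by TMM and tested over 18438 genes that passed filterByExpr with edgeR 4.0.16 (quasi-likelihood, group only, R 4.3.3); SE was taken as the log2 fold change over the square root of F. DESeq2 1.42.0 was an alternative. Groups follow the labels; the methods give cohorts of 6 recipient mice, as many as the libraries of a group, and 1 donor pool, so p-values measure the spread between recipients and not between donors. No pair of libraries of a group agreed within sampling noise. Other steps ran in Python 3.11.15 (pandas 2.3.3, numpy 2.4.6, scipy 1.17.1; plots with matplotlib 3.10.9). In simulated counts over 18438 genes, 21 of 66 genes changed by 0.5 on the log2 scale, 40 of 67 changed by 1 and 63 of 67 changed by 2 were called, in the right direction, with 2 of 18238 unchanged genes. The simulation changed only 200 genes and gave both groups the same spread. In the data 59.5% of genes were called, and the biological coefficient of variation was 10.8% in CTRL and 32.4% in CML 2wk. These shares therefore do not carry over to the data. The members, lists and tests were chosen with earlier results of these data known; all 31 genes are named, with the 4 largest called changes each way of both pathway lists at a mean of at least 1 CPM, and Bax, Cdkn2a, Trp63 and Trp73 were named after their values were seen. Promoter windows are RefSeq's (GRCm38.p6).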

Additional observations from a re-analysis of the deposited data

Results flagged for a closer look

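In 8 of 94 groups of 6 libraries (47 genes), the highest or lowest library was further from its neighbour than Dixon's 95% limit for 6 values allows. About 4.7 such cases arise by chance. In 5 of the 8 the library was CML 2wk replicate 2. That library was the highest of its group for Perp (28.0 CPM, next 10.2), Cdkn1a (31.1, next 14.3), Lif (19.1, next 4.99), Ak1 (11.6, next 3.91) and Phlda3 (5.43, next 2.66). Its stromal sum was 3236 CPM, and the part of this in the 5 values was not tested. CML 2wk replicate 3 was the highest of its group for Pvt1 (24.5 CPM, next 18.5). CTRL replicate 2 was the highest of CTRL for Btg2 (71.2 CPM, next 44.7), and CTRL replicate 4 was the lowest of CTRL for Tnfrsf10b (6.94 CPM, next 7.84).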

How the results depend on the processing

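Over 21 alternatives (scaling, filter, DESeq2, block, libraries left out), 14 of the 18 called genes of the list kept their call and direction, as did the 16 named pathway genes. Mdm4 lost its call under 12, among them upper-quartile factors, the 1 CPM filter and leaving out CTRL replicates 2, 4 or 6 or CML 2wk replicates 1, 2, 4 or 6; Dcxr under 11, among them the first 2 of these and leaving out CTRL replicates 1, 2, 4 or 5 or CML 2wk replicates 1, 4 or 5; Ei24 under 7, among them the same 2 and leaving out CTRL replicates 1 or 3 or CML 2wk replicates 3 or 5; Ercc5 without replicate 6 of both groups. Of the 12 uncalled genes, 6 were called somewhere in the same direction, Fas without CML 2wk replicate 3, Rrm2b without 4, Tnfrsf10b without 1 or 6, Apaf1 without 1 or CTRL replicates 2 or 5, and Mdm2 and Ak1 without CML 2wk replicate 2 (Tnfrsf10b, Apaf1 and Mdm2 also under another filter, scaling or DESeq2). Called genes of the list numbered 5 to 6 higher and 10 to 15 lower, and the median of the 30 genes tested, −0.22 to −0.12 when 1 library was left out, moved to −0.30 without CML 2wk replicates 2 and 4, an alternative chosen after seeing the data. The cause was not tested.

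Estimates that turned were all of uncalled genes. Without CML 2wk replicates 2 and 4, Plk2 was −1.93 (adjusted p = 0.0346), Zmat3 −0.41 (adjusted p = 0.0184), Eda2r −0.51, Phlda3 −0.16 and Plk3 −0.028. Leaving out 1 library gave −0.25 to 1.34 for Plk2, −0.0998 to 0.27 for Plk3, −0.093 to 0.40 for Eda2r, −0.052 to 0.42 for Phlda3 and −0.24 to 0.17 for Zmat3. Zmat3 was also −0.020 without a filter. With the replicate number as a block, Eda2r was −0.039 and Zmat3 −0.065, 5 genes were called higher and 11 lower with a median of −0.14, and Mdm4 and Dcxr lost their calls; libraries with the same number did not deviate together (correlations −0.13 to 0.068), so the number does not pair them. Depth limits Plk2, Eda2r, Fas, Phlda3 and Gdf15, all with group means under 3 CPM.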
